A study of Mus musculus with 5 samples.

Results

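The genes described here encode the machinery that displays peptides on major histocompatibility complex (MHC) molecules, the antigen presentation genes. They are the 10 symbols Cd74, H2-Aa, H2-Ab1, H2-Eb1, H2-D1, H2-K1, H2-T23, B2m, Tap1 and Ciita, chosen by name, and all 10 were found among the 23420 gene symbols of the deposited files. RNA was taken from the dentate gyrus (DG), a part of the hippocampus, of wild-type male mice of the outbred CD1 strain, with an age of 4 months in the labels. Mice lived for 4 weeks alone with a locked disk (LD, the control), in groups with a locked disk and tunnels (CE, the complex environment) or alone with a running disk (RUN). Each of these groups gave 1 library of RNA pooled from 8 mice. The 4 runners of shortest distance (L-RUN) and the 4 of longest distance (H-RUN) were pooled again into 1 library each, so that RUN held the same 8 runners as L-RUN and H-RUN together. The files analysed here hold 5 libraries, 1 per group, so they give no replicate of any difference below, and no p-value was computed.

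Class I molecules pair a heavy chain (such as H2-K1 or H2-D1) with beta-2-microglobulin, the product of B2m, and show peptides from inside the cell to CD8 T cells. Tap1 is a subunit of the transporter that carries those peptides into the endoplasmic reticulum. Class II molecules pair an alpha chain (H2-Aa) with a beta chain (H2-Ab1), are loaded with the help of the invariant chain Cd74, and show peptides taken up from outside the cell. Ciita is the coactivator that drives class II transcription. In brain, class II molecules are known mainly from microglia, border macrophages and dendritic cells, while class I molecules are also found on endothelium and neurons, where they have been linked to synaptic plasticity.

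Most members lie on chromosome 17 in GRCm38 (mm10), in the mouse H2 complex. H2-K1 spans 33996017 to 34000347, Tap1 34187553 to 34197225, H2-Ab1 34257689 to 34269419, H2-Aa 34282744 to 34287823, H2-Eb1 34305867 to 34316674, H2-D1 35262730 to 35267499 and H2-T23 36029773 to 36032855. B2m lies on chromosome 2 (122147686 to 122153083) and Ciita on chromosome 16 (10480059 to 10528418). RefSeq promoters, 250 bases before to 50 bases after the gene start in GRCm38.p6, were at hand for 7 of the 10 members (Cd74, H2-Ab1 and Ciita had no entry). The promoters of the 4 expressed members that encode class I chains are shown because these genes have related roles and yet split between the libraries, as given below. They come from chr17:34000298-34000597 on the minus strand (H2-K1, the first of 2 entries), chr17:35262844-35263143 on the plus strand (H2-D1), chr17:36032652-36032951 on the minus strand (H2-T23) and chr2:122147437-122147736 on the plus strand (B2m). Capitals mark matches, on either strand, to CCAAT, the core bound by NF-Y, to AANNGAAA, a core bound by interferon regulatory factors, and to a form of the NF-kappaB site.
H2-K1: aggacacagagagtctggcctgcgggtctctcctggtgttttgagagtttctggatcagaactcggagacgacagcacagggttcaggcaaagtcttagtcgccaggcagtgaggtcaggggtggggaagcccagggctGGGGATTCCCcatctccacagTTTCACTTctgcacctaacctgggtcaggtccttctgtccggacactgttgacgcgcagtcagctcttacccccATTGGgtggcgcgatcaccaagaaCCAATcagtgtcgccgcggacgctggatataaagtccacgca
H2-D1: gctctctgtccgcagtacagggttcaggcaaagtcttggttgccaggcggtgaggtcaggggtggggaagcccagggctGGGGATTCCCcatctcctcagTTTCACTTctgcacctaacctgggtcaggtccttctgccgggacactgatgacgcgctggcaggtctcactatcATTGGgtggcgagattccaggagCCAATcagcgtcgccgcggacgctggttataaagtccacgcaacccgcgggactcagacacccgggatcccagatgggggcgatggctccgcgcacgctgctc
H2-T23: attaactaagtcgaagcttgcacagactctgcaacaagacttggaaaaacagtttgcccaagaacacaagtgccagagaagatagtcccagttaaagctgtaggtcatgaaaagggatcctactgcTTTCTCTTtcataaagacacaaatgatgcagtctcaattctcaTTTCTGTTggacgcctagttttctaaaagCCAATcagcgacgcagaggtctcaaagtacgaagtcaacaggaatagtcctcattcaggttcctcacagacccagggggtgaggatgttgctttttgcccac
B2m: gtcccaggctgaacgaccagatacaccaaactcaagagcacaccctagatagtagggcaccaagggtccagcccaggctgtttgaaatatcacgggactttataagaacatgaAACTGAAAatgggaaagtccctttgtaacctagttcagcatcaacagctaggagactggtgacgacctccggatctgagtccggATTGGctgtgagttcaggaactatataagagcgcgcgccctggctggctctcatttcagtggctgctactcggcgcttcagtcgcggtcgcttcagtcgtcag
All 4 promoters hold CCAAT and AANNGAAA, and both H2-K1 and H2-D1 hold the NF-kappaB form. Among the 7 members with an entry, 7 hold CCAAT, 5 hold AANNGAAA and 3 hold the NF-kappaB form, against 37.9%, 24.2% and 1.66% of 27025 promoters of the same length. The longer word CTGATTGG, which contains CCAAT on the other strand, was present in 6 of the 7 and in 4.31% of all. A form of the class II X box was present in H2-Eb1 alone of the 7 and in 0.0814% of all promoters. A match is a run of letters and was not tested as a binding site.

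The values are regularized logs (rlog), which the authors computed with all 5 libraries at once on the log2 scale and in which each gene is pulled towards its own mean. This pull is strong for genes of low level. Genes with a mean rlog of at least 5 are called expressed here (13550 genes), and 6 of the 10 members passed, namely Cd74, H2-D1, H2-K1, H2-T23, B2m and Tap1. H2-Aa, H2-Ab1, H2-Eb1 and Ciita stayed below 5. Of 5282 genes below 5 that were not at 0 throughout, 0 had a range of 0.3 or more between their highest and lowest library (largest range 0.289, median 0.0156), whereas 694 of the expressed genes did. A difference of 0.3, the cut-off of the study, was thus reached by no gene at the level of these 4 members. Counts were not used, so how far their counts differed is unknown. The spread between libraries was taken from RUN, whose value can be set against the mean of its parts, L-RUN and H-RUN, taken on the linear scale in equal amounts (the computed mixture). Scaled to a difference between 2 libraries, it gave a technical SD of 0.0365 over expressed genes, between 0.0308 and 0.0471 in the deciles of expression that hold the expressed members, and 0.0219 for genes between 3 and 5. Differences between mice do not enter this SD, only those between library preparations and sequencing runs of the same RNA.

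**Figure D1:**
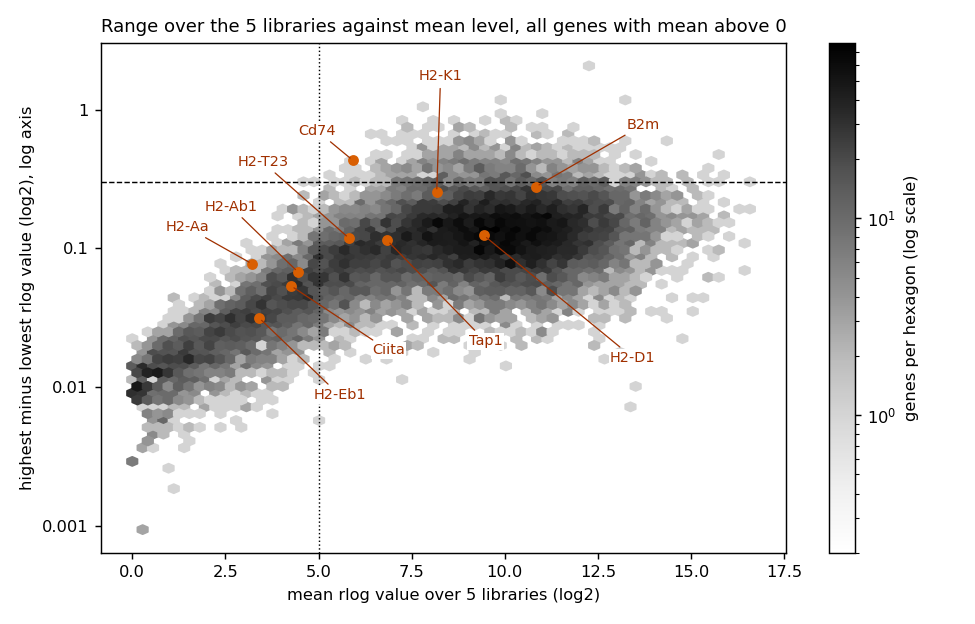
Highest minus lowest rlog value over the 5 libraries (log2, log axis) against the mean rlog value (log2), with hexagons for all genes with a mean above 0 and orange points for the 10 MHC genes. The dashed line is 0.3 and the dotted line a mean of 5; Cd74 is the only member above 0.3, and the 4 members left of the dotted line lie where no gene reaches it.

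Levels were compared between members only per kb of the longest annotated transcript, as mean rlog minus log2 of that length. B2m was highest at 11.05, followed by the heavy chains H2-D1 at 8.36 and H2-K1 at 7.27. Cd74 had a level of 5.43 per kb, Tap1 4.88, the nonclassical class I heavy chain H2-T23 4.42 and H2-Ab1 4.18. H2-Eb1 (2.66), Ciita (1.67) and H2-Aa (1.53) were lowest. B2m and the classical class I chains thus had the highest levels of the 10 genes and the class II chains and their coactivator the lowest, with Cd74 above every class II chain. Each step between neighbours in this order was larger than the range of either gene over the libraries, the widest being 0.43 for Cd74. That range does not cover an error in the length used. The longest transcript was 3223 nucleotides for H2-Aa and 1212 for H2-Ab1, and the order with other transcripts was not tested.

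On the class II side the widest differences were those of Cd74, the chaperone of class II chains and also the receptor for the cytokine MIF. Its gene lies on chromosome 18 (60803848 to 60812652). Its rlog value was 6.15 in LD, 5.72 in CE, 6.05 in L-RUN, 5.75 in H-RUN and 5.93 in RUN. LD was highest, CE and H-RUN lowest, and both differences from LD passed 0.3, at -0.43 for CE (0.741 times LD) and -0.40 for H-RUN (0.757 times LD), with a technical SD of 0.037. RUN was lower than LD by 0.23 and L-RUN by 0.11, both short of the cut-off. CE and H-RUN lay 0.030 apart, less than the technical SD, while each further step from H-RUN to RUN, L-RUN and LD was at least 2.96 times that SD. H-RUN was 0.29 lower than L-RUN and CE 0.21 lower than RUN. All 4 differences from LD share the LD library, so a high LD value would enter each of them.

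Cd74 was the only member to pass 0.3, in CE and in H-RUN, in the lower direction both times. As background, 0.598% of expressed genes passed in CE (0.332% higher and 0.266% lower) and 0.827% in H-RUN (0.354% higher and 0.472% lower), against 1 of the 6 expressed members each time. In RUN 0 of the 6 passed, with a background of 1.31% (0.362% higher and 0.952% lower), and in L-RUN 0, with 3.13% (0.797% higher and 2.33% lower). Between H-RUN and L-RUN 0 passed (background 1.54%), and between CE and RUN 0 (background 0.834%). Ranked from the lowest, the difference of Cd74 was number 5 of 13550 in CE, number 18 in H-RUN, number 291 in RUN and number 2547 in L-RUN. In its decile of expression, the 1355 expressed genes of lowest level, 2 genes passed 0.3 in CE, 4 in L-RUN, 1 in H-RUN and 0 in RUN. The 1 gene of H-RUN was Cd74 itself.

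The class II chains and Ciita had ranges of 0.032 to 0.077 over the libraries. H2-Aa, the alpha chain, had 3.26 in LD, 3.19 in CE, 3.27 in L-RUN, 3.19 in H-RUN and 3.20 in RUN. It separated LD and L-RUN from the other 3 libraries by 0.056, the 1 step between neighbours among these 4 low members that exceeded 2 times their technical SD. H2-Ab1, its beta chain partner, had 4.44 in LD, 4.43 in CE, 4.49 in L-RUN, 4.43 in H-RUN and 4.47 in RUN. Like Cd74, both chains were lower in CE and H-RUN than in L-RUN, by at most 0.077. H2-Eb1, the other class II beta chain, had 3.40 in LD, 3.39 in CE, 3.42 in L-RUN, 3.41 in H-RUN and 3.39 in RUN. Ciita had 4.28 in LD, 4.26 in CE, 4.23 in L-RUN, 4.27 in H-RUN and 4.26 in RUN, so that L-RUN was lowest here. For both of these genes no step between neighbouring libraries reached 2 times the technical SD. The range of H2-Aa was wider than that of 96.8% of the 5282 low genes, that of H2-Ab1 of 95.2%, of Ciita of 90.1% and of H2-Eb1 of 74.4%. Only 1662 of these low genes had a mean rlog from 3 to 5, where the 4 members lie. The others are lower still and pulled more strongly, so these shares do not compare genes of like level.

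**Figure D2:**
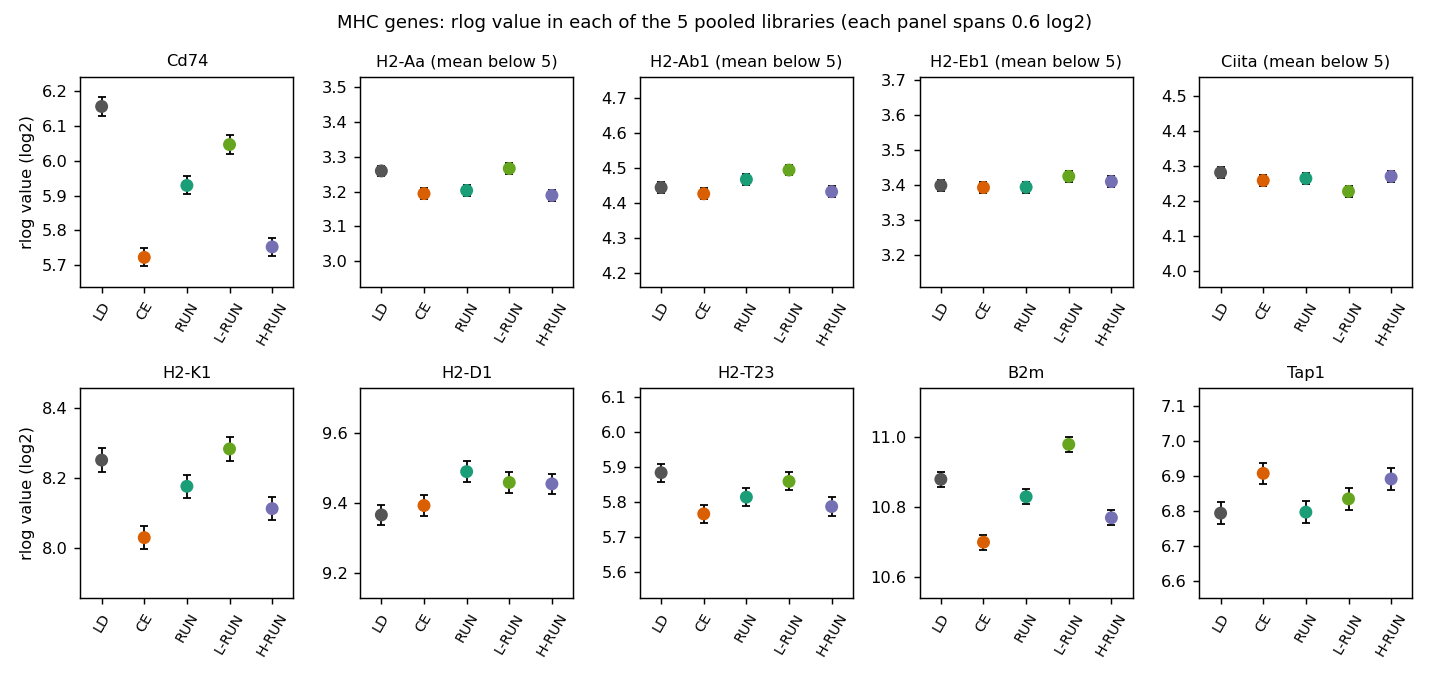
rlog value (log2) of each MHC gene in the 5 pooled libraries, 1 point per library, with bars for the technical SD of a single library; every panel spans 0.6. The upper row holds Cd74, the class II chains and Ciita, the lower row the class I genes. Cd74, H2-K1, H2-T23 and B2m are lowest in CE, while H2-D1 and Tap1 are lowest in LD.

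On the class I side, B2m and the heavy chain H2-K1 had nearly the same profile over the libraries. B2m had an rlog value of 10.88 in LD, 10.70 in CE, 10.98 in L-RUN, 10.77 in H-RUN and 10.83 in RUN. H2-K1 had 8.25 in LD, 8.03 in CE, 8.28 in L-RUN, 8.11 in H-RUN and 8.18 in RUN. Both genes were lowest in CE, next lowest in H-RUN and highest in L-RUN. Against LD, with a technical SD of 0.031, B2m was lower by 0.18 in CE, by 0.048 in RUN and by 0.11 in H-RUN, and higher by 0.098 in L-RUN. For H2-K1, with a technical SD of 0.047, the values were -0.22 in CE, 0.032 in L-RUN, -0.14 in H-RUN and -0.075 in RUN. The CE differences were 5.85 and 4.71 times the technical SD, and neither gene passed 0.3. L-RUN exceeded H-RUN by 0.21 for B2m, 6.81 times its technical SD, and by 0.17 for H2-K1, 3.63 times its own. For H2-K1 no single step between neighbouring libraries reached 2 times the technical SD, although its ends did. For B2m 3 of the 4 steps did, and RUN and LD were not separated.

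The small lead of L-RUN over LD in these genes was sensitive to transcript length. B2m is short, with a longest transcript of 860 nucleotides. The trend of each difference on transcript length was then removed across expressed genes. The difference of L-RUN from LD became -0.011 for B2m and -0.021 for H2-K1, both smaller than the technical SD, so that no lead was left. For H2-K1 the lead had been only 0.68 times that SD before. The difference of RUN from LD moved to -0.13 for B2m and to -0.12 for H2-K1. The CE differences became -0.22 and -0.25, and Cd74 in L-RUN moved to -0.18.

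The other heavy chains did not share 1 profile. H2-T23, which encodes the nonclassical molecule Qa-1, had 5.88 in LD, 5.77 in CE, 5.86 in L-RUN, 5.79 in H-RUN and 5.81 in RUN. Its order from CE up to LD was that of Cd74, over a range of 0.12, and no step between neighbours reached 2 times the technical SD. H2-D1, the second classical heavy chain in the list, had 9.37 in LD, 9.39 in CE, 9.46 in L-RUN, 9.46 in H-RUN and 9.49 in RUN. Here LD was lowest and the 3 running libraries were higher than LD by 0.089 to 0.12, with a technical SD of 0.042, while CE was within that SD of LD. H2-D1 and H2-K1 therefore differed in sign in CE, RUN and H-RUN. Their reads can be hard to tell apart: of all 50-base words in the longest transcript, 14.3% of those of H2-D1 and 8.11% of those of H2-K1 also occur in transcripts of other genes, as do 16.0% of those of H2-T23 and 0% of those of B2m and Cd74. Values of the heavy chains are uncertain, but these shares do not measure by how much, since the treatment of reads with several positions is not given. CD1 mice may also carry H2 alleles other than those of mm10, and pools of outbred mice may differ in them. The part of either in the values of H2-K1 and H2-D1 was not tested.

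Tap1 ran opposite to B2m and H2-K1 in CE and H-RUN. It had 6.79 in LD, 6.91 in CE, 6.84 in L-RUN, 6.89 in H-RUN and 6.80 in RUN. CE was highest and LD lowest, 0.11 apart, or 2.61 times the technical SD of 0.044, and H-RUN was 0.098 above LD. No step between neighbouring libraries reached 2 times the technical SD.

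**Figure D3:**
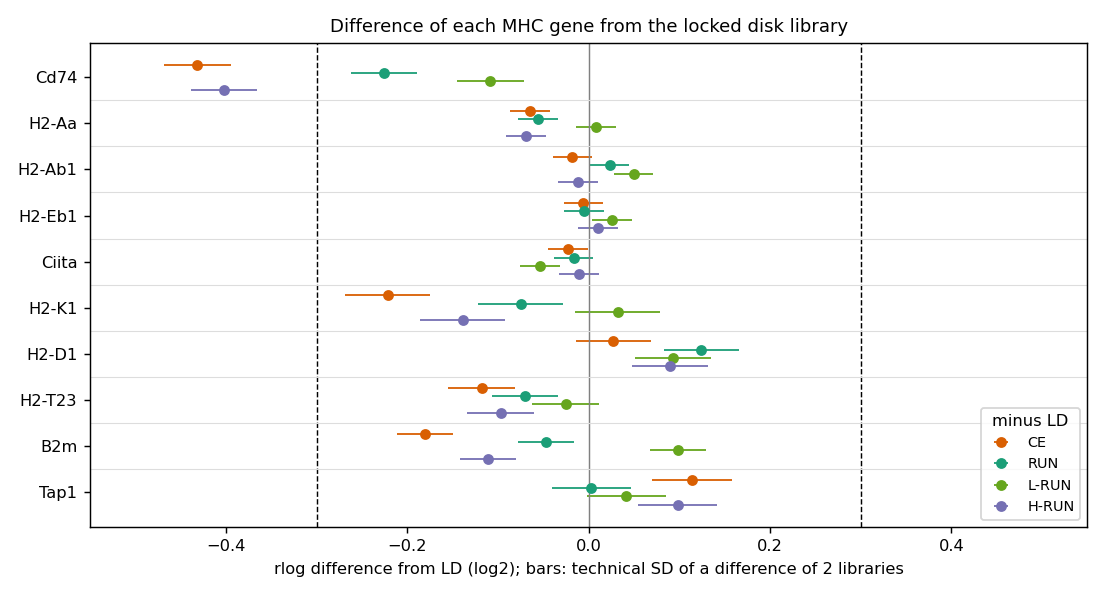
rlog difference (log2) from LD of each other library for the 10 MHC genes; bars are 1 technical SD of such a difference and dashed lines mark 0.3 in either direction. Only Cd74 in CE and H-RUN lies beyond a dashed line, H2-K1 and B2m lie to the left in CE and H-RUN, and H2-D1 and Tap1 to the right.

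Over the 6 expressed members, the median difference from LD was -0.15 for CE and -0.10 for H-RUN, with -0.059 for RUN and 0.037 for L-RUN. Over all expressed genes, in the order CE, RUN, L-RUN, H-RUN, it was -0.0018, -0.0013, -0.0018 and -0.0035. Over all 10 members it was -0.044, -0.032, 0.029 and -0.041, since the 4 low genes are held near 0 by the rlog. In CE and in H-RUN, 4 of the 6 were lower than LD (Cd74, H2-K1, H2-T23 and B2m) and 2 were higher (H2-D1 and Tap1). Of all expressed genes, 50.8% were lower than LD in CE and 52.0% in H-RUN. The lead of H2-D1 in CE was 0.027, or 0.65 times its technical SD.

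RUN offers a second look at the running libraries, since it was prepared as a library of its own from the same RNA. For the 6 expressed members, RUN minus the computed mixture was 0.022 for Cd74, 0.033 for H2-D1, -0.024 for H2-K1, -0.0095 for H2-T23, -0.045 for B2m and -0.067 for Tap1. The largest, those of Tap1 and B2m, were 1.77 and 1.68 times the technical SD of such a residual. The mixture of Cd74 lay 0.25 below LD and the measured RUN library 0.23 below it. This repeats the measurement on the same mice and says nothing about other mice.

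**Figure D4:**
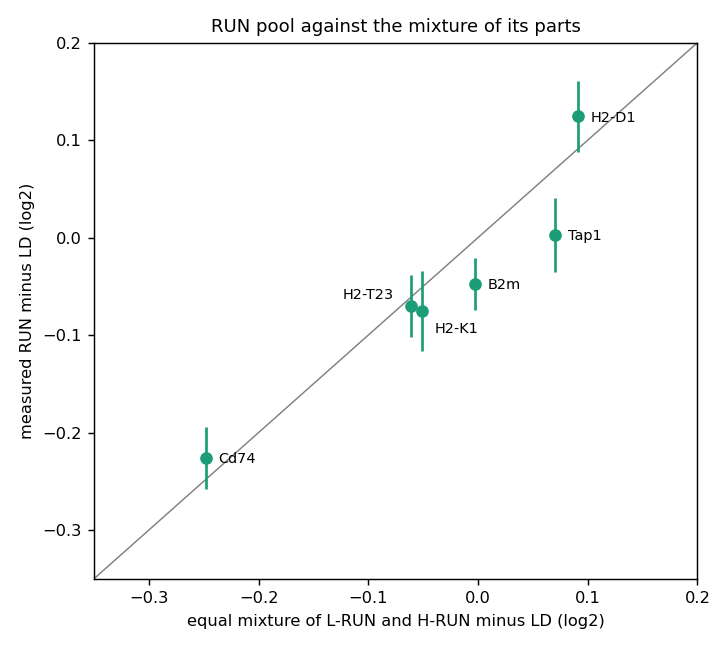
Measured RUN minus LD against the computed mixture minus LD, both in log2, for the 6 expressed MHC genes; the bars are the technical SD of the residual and the line marks equality. Cd74 lies lowest at -0.23 measured and -0.25 computed, and Tap1 lies farthest below the line.

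Likeness of profiles was measured as the root mean square distance between rlog values of 2 genes, each centred on its mean over the 5 libraries. This is a description over 5 libraries that share mice. Among expressed members, H2-K1 and B2m were closest at 0.022, and among 13549 other expressed genes each was number 2 in the order of nearness to the other, a rank looked up after the values were seen. Cd74 was 0.088 from H2-K1, 0.10 from B2m and 0.21 from Tap1. Among the neighbours of Cd74, H2-K1 was number 8 and B2m number 32, whereas Cd74 was number 3725 among the neighbours of H2-K1 and number 5773 among those of B2m. The 5 expressed genes nearest to Cd74 were Swt1 (distance 0.071), Fabp7 (0.075), which encodes a fatty acid-binding protein of radial glia and astrocytes, the transcription factor gene Bhlhe22 (0.082), Lonrf3 (0.083) and the desmosomal cadherin gene Dsg2 (0.084), against a median of 0.17 over all expressed genes. None of these 5 is a gene of the MHC lists. Of them, Dsg2 passed 0.3 in H-RUN at -0.36, where 0.472% of all expressed genes were lower by 0.3 or more.

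In the rest of the antigen presentation pathway no expressed gene passed 0.3. Of 19 other class I heavy chains and class I-like molecules, 6 were expressed, 0 passed 0.3 in any group and the median difference from LD lay between -0.020 and 0.046. H2-Q6, H2-Q7 and H2-M2 were at 0 in every library. The 2 with the largest differences were H2-T10, with 7.78 in LD and 7.99 to 8.04 in the other libraries, and H2-T24, with 5.49 in LD and 5.24 to 5.28 in the others. For both genes LD stood apart from all 4 other libraries, in opposite directions. Of the 50-base words of H2-T10, 50.1% occur in other genes, mainly H2-T22, so its value is uncertain, and 3.23% of those of H2-T24 do.

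Of 12 genes of peptide supply and loading for class I (the transporter subunit Tap2, tapasin, chaperones, immunoproteasome subunits), 11 were expressed, 0 passed 0.3 and the medians lay between -0.049 and 0.0096. The largest differences were those of the chaperones Canx, lower than LD by 0.18 to 0.22 in all 4 groups, and Calr, which was lower by 0.20 in H-RUN. Of 12 other class II chains and loading genes, 7 were expressed and 0 passed, with medians between -0.039 and 0.018. Ctss, the cathepsin that trims the invariant chain, had 10.62 in LD, 10.43 in CE, 10.46 in L-RUN, 10.35 in H-RUN and 10.39 in RUN. Like Cd74 it was highest in LD, but it was lowest in H-RUN and not in CE. The ubiquitin ligase gene March1, whose product removes class II molecules from the cell surface, was lower than LD by 0.13 to 0.17 in the running libraries and by 0.030 in CE.

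Of 19 transcription factors and interferon signalling genes 18 were expressed and 0 passed, with medians between -0.041 and -0.027. Their largest differences were -0.19 for Nfyb in L-RUN and -0.18 for Creb1 in CE. Of 20 interferon-stimulated genes 15 were expressed and 0 passed, with medians between -0.063 and -0.0027. Of these 15, 12 were lower than LD in CE, 11 in RUN, 13 in H-RUN and 8 in L-RUN, where 50.7% to 52.0% of all expressed genes were. Ifit2 was lower than LD by 0.23 in H-RUN and within 0.0084 of it in CE.

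MIF is a ligand of CD74, and CD44 is the coreceptor that passes the signal on. Mif had 11.40 in LD, 11.71 in CE, 11.62 in L-RUN, 11.56 in H-RUN and 11.57 in RUN, so that every other library was above LD, where Cd74 was below. In CE it passed 0.3, at 0.31 with a technical SD of 0.028, as 1 of the 5 expressed genes of this list, against 0.332% of expressed genes higher by that much. Cd44 was higher than LD by 0.2995 in CE, just short of the cut-off, and by 0.021 to 0.14 in the running libraries, and is named here after its values were seen. Ddt, which encodes the MIF homologue D-dopachrome tautomerase, differed from LD by -0.026 in CE, where Mif was higher, and by 0.092 to 0.15 in the running libraries. Cxcr4 stayed within 0.062 of LD and Ackr3 (listed under its older symbol Cxcr7) within 0.082. The median over the 5 expressed genes was 0.046 in CE, 0.14 in L-RUN, 0.028 in H-RUN and 0.093 in RUN.

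Markers of cell types were read beside these values, because in bulk tissue fewer cells of a type and less RNA per cell cannot be told apart. No markers of other hippocampal fields were read, so the purity of the dissection was not tested. All 10 granule cell markers were expressed, among them Prox1 at 11.61 to 12.01. In CE their median difference from LD was -0.14, with 8 of 10 lower, beside -0.15 for the 6 expressed MHC genes. Their medians were -0.12 in L-RUN, -0.068 in H-RUN and -0.061 in RUN. Prox1 was lower than LD by 0.41 in L-RUN, where 2.33% of all expressed genes were lower by 0.3 or more. C1ql2 was higher by 0.37 to 0.40 in the running libraries, where 0.354% to 0.797% were higher by 0.3 or more. All 20 microglia markers were expressed. Lower than LD were 17 of 20 in CE, 16 in RUN, 15 in H-RUN and 14 in L-RUN (50.7% to 52.0% of all expressed genes were). Of the 20 markers, 0 passed 0.3, where 0.598% to 3.13% of all expressed genes did, and their medians lay between -0.096 and -0.075. Their summed level was 13.77 in LD and 13.63 to 13.66 in the other 4 libraries. Of 11 markers of perivascular and border macrophages 4 were expressed, and the summed level of all 11 was 9.59 in LD, 9.56 in CE, 9.73 in L-RUN, 9.56 in H-RUN and 9.64 in RUN. The median difference over the 11 was 0.0023 in CE, 0.11 in L-RUN, 0.0071 in H-RUN and 0.049 in RUN. Mrc1 was 0.22 above LD in L-RUN and 0.070 below it in H-RUN. Lyve1 and Cd163, both below a mean of 5, were like Mrc1 highest in L-RUN, at 0.21 and 0.13 above LD. Lyve1 was also above LD by 0.057 in CE and 0.064 in H-RUN, and Cd163 by 0.037 and 0.023.

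Of 8 dendritic cell markers 3 were expressed (Flt3 and Clec9a among them), and the summed level of all 8 ran from 9.19 in H-RUN to 9.36 in L-RUN. That sum was held mostly by Flt3, at 8.80 in H-RUN and 9.01 in L-RUN, while Itgax, Xcr1, Cd209a, Ccr7 and Batf3 stayed below 5. Of 7 T cell markers only Lck was expressed, at 5.93 to 5.98, and of 5 B cell markers 0 were, with Ms4a1 and Pax5 below 0 on the rlog scale in every library. All 13 endothelial markers were expressed, 11 of them lower than LD in CE, and 7 or 8 of them in each running library (50.7% to 52.0% of all expressed genes were). Their summed level was 12.80 in LD and 12.72 to 12.75 in the others. Flt1 alone passed 0.3, lower in RUN (0.952% of all expressed genes were lower by that much) and in L-RUN (2.33%). Of 8 blood and neutrophil markers measured 0 were expressed, and their summed level was 5.56 in LD and 5.43 to 5.46 in the other libraries. The largest shift among these lists was in leptomeningeal fibroblast markers, of which 13 of 15 were expressed. Higher than LD by 0.3 or more were 10 in L-RUN (0.797% of all expressed genes), 6 in RUN (0.362%) and 3 in CE (0.332%), while 2, Dcn at -0.52 and Ogn at -0.68, were lower by that much in H-RUN (0.472%). The summed level of the 15 was 11.93 in LD, 12.10 in CE, 12.49 in L-RUN, 11.75 in H-RUN and 12.14 in RUN. Of the choroid plexus markers 2 of 7 were expressed. Ttr was 0.62 higher than LD in CE, where 0.332% of all expressed genes were higher by 0.3 or more. Kl, the other expressed marker, was only 0.025 higher there, and the median over all 7 was 0.018. The part of these cell types in the values of the MHC genes was not tested.

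**Figure D5:**
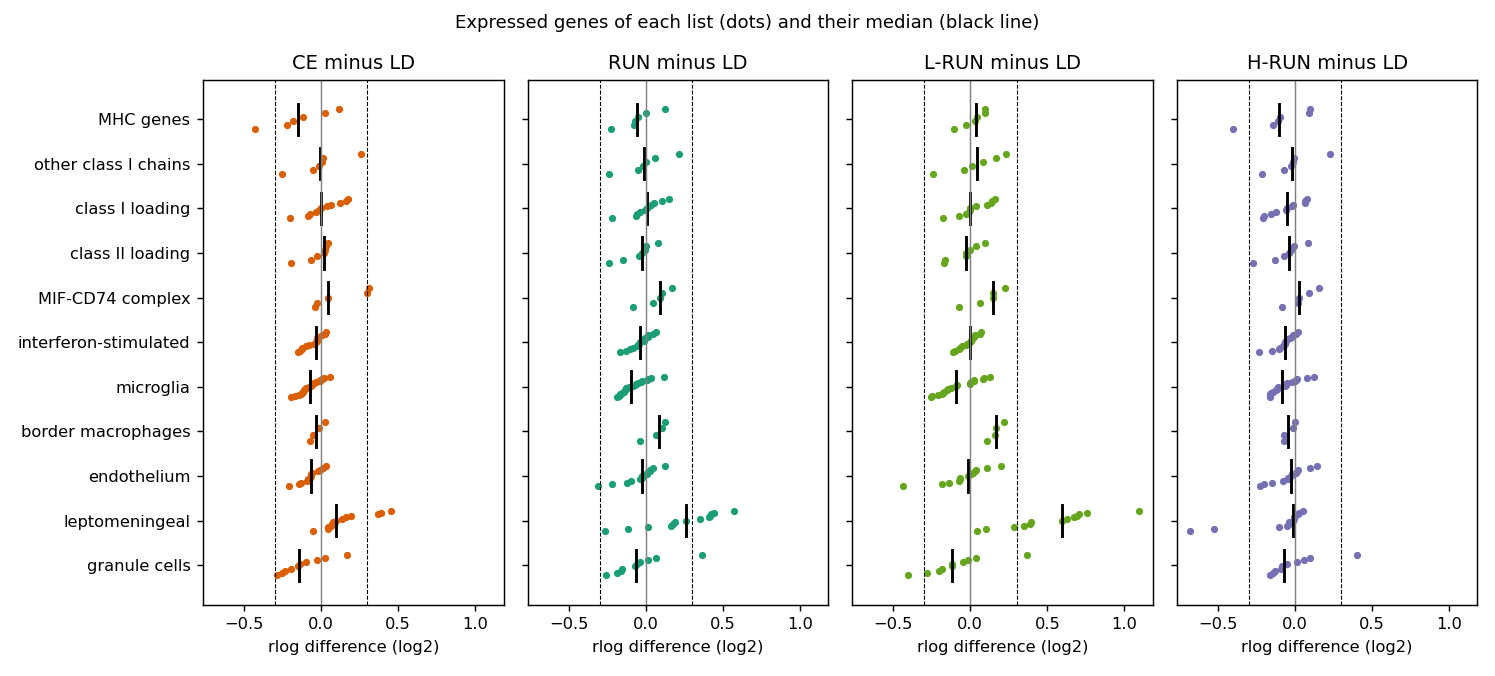
rlog difference (log2) from LD of the expressed genes of the MHC, pathway and cell type lists shown, 1 dot per gene with the list median as a black line, in CE, RUN, L-RUN and H-RUN; dashed lines mark 0.3 in either direction. The MHC genes have medians of -0.15 in CE and -0.10 in H-RUN, the MIF-CD74 genes one of 0.14 in L-RUN and the granule cell genes one of -0.14 in CE, and the leptomeningeal list lies far to the right in L-RUN.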

How the data were processed

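RNA of the DG was sequenced as 1 pooled library per group. Per the labels and the methods, the authors trimmed adapters, mapped reads to mm10 with TopHat2 2.0.10, obtained counts per RefSeq gene from HTSeq, and extracted regularized log values with DESeq2 1.10.1. These deposited values are on the log2 scale. Counts were not used here, so depth and its precision are unknown. The strand setting and the treatment of reads with several positions are not given in the sources used here. mm10 derives from C57BL/6J, and CD1 mice may carry other H2 alleles.

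Differences were taken between libraries, with a cut-off of 0.3. The technical SD is 1.483 times the median absolute deviation of RUN minus log2 of the linear mean of L-RUN and H-RUN, per decile of expression, with its variance taken as 1.5 times that of a library. Transcript lengths came from GENCODE M21 for 94.2% of expressed genes, and the trend was removed by lowess (fraction 0.3). Members and lists were chosen with earlier results of these data known. The rule for named genes was the members and, per list, up to 4 past 0.3 or else the 2 expressed genes with the largest difference. For likeness it was the 5 nearest genes. Not every gene under this rule is named. Some outside it are, among them Cd44, Ddt, Cxcr4, Ackr3, Lyve1, Cd163, Dcn and Ogn. Hbb-bt was not measured. Cut-offs of 0.2 and 0.4, centring, quantile normalization, length and expression filters were alternatives. Calculations were tested on simulated data and used python 3.11.15, numpy 2.4.6, pandas 2.3.3, statsmodels 0.14.6 and matplotlib 3.10.9.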

Additional observations from a re-analysis of the deposited data

How the results depend on the processing

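With a cut-off of 0.2, the members past it numbered 2 in CE against LD (Cd74 and H2-K1), 1 in RUN against LD (Cd74), 2 in H-RUN against L-RUN (Cd74 and B2m) and 1 in CE against RUN (Cd74). Of all expressed genes, 3.77%, 4.66%, 4.93% and 3.48% passed 0.2 in these comparisons. The counts for L-RUN and H-RUN against LD were as at 0.3. A cut-off of 0.4, a requirement of both 0.3 and 3 technical SDs, centring, quantile normalization, removal of the length trend and the filter on low values moved none of the 6 counts. Over expressed members alone, the median difference was -0.149 for CE and -0.104 for H-RUN against LD, -0.121 for H-RUN against L-RUN and -0.115 for CE against RUN, larger in size than over all 10 because the 4 low genes are left out. With the length trend removed, the median of L-RUN against LD over all 10 moved from 0.029 to -0.0015. The technical SD of genes with a mean rlog from 3 to 5, added after the data were seen, was 0.0219. Of 36 differences of single expressed members, 36 moved by less than their technical SD under centring and 36 under quantile normalization, against 25 when the length trend was removed. No paired analysis was possible because each group is 1 library. Depth is unknown, and at the level of the class II chains and Ciita no gene reached 0.3. That these members did not pass the cut-off therefore does not show that they were unchanged.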

Other observations

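Of the 6 expressed MHC genes, 4 (Cd74, H2-K1, H2-T23 and B2m) had the same order at the low end, with CE below H-RUN, H-RUN below RUN, and LD and L-RUN on top. This order was noticed after the values were seen. It was present in 2.48% of the 13550 expressed genes, in 1 of 20 microglia markers and in 0 of 13 endothelial markers. The order was not particular to these members. Genes of the related pathway lists had it too, such as H2-Q4, Ifi30, Creb1, Rfxap, Stat2, Igtp and Irgm1. Its share in those lists was not computed. RUN is a pool of the runners of L-RUN and H-RUN, and it lay between these libraries in 58.3% of expressed genes, so its place in the order is not independent of theirs. With the length trend removed, these 4 genes kept the order, which was then present in 2.86% of 12765 genes. For H2-K1 and H2-T23 the steps between neighbours were within 2 times the technical SD, and for Cd74 the step from CE to H-RUN was too, so that B2m alone of the 4 separated CE from H-RUN.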
